A study of Mus musculus with 24 samples.

Results

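The intergenic H3K4me3 regions are the rows of the deposited count tables on chromosomes 1 to 19 that overlap no annotated gene and lie more than 1000 bp from every annotated transcription start site (TSS) of GENCODE M1 on mouse genome build mm9. There were 2206 such regions among 17993, against 14216 within 1000 bp of a TSS (called TSS regions here) and 1492 inside genes but away from any TSS (gene body regions). The counts came from mouse cerebral cortex, with 3 libraries in each of 4 groups. Rosa H2B-FLAG mice (Rosa CAG-H2B-FLAG) carried FLAG-tagged histone H2B in nearly all cells of the cortex, after Vasa-Cre removed the stop cassette in the germ line, and served as the whole-tissue reference. Camk2a H2B-FLAG mice (Rosa26 CAG-floxed-pA-H2B-FLAG/ CaMKCreERT2) expressed the tag where the Camk2a promoter drove CreERT2, mainly in excitatory neurons of the forebrain, after tamoxifen at 1 mg per day in 5 injections from 8 weeks of age. All animals were C57BL/6, and each chromatin lysate came from 2 animals. In single ChIP-Seq chromatin was precipitated with anti-H3K4me3 alone, and in tandem ChIP-Seq (tChIP-Seq) with anti-FLAG and then anti-H3K4me3. Camk2a tChIP-Seq is thus directed at the tagged neurons, while the other 3 groups sample the whole cortex. The paper places the share of tagged cells about at the lower limit of its method, so chromatin of untagged cells may remain in Camk2a tChIP-Seq. Its amount was not measured here.

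H3K4me3 is laid down by the SET1 and MLL methyltransferase complexes and is known as the mark of nucleosomes that flank active or poised promoters, above all promoters rich in CG dinucleotides. Away from annotated genes, weak H3K4me3 can be found at active enhancers, and strong H3K4me3 mostly at promoters that an annotation lacks, such as those of long noncoding RNAs or of alternative first exons. Enhancers are among the most cell type-restricted elements of the genome, which is why regions outside genes are of interest in a neuron-directed ChIP.

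GENCODE M1 is an early annotation, so promoter sequences of RefSeq (build GRCm38.p6) were aligned to mm9, and 31292 of 32851 were placed at a single position. Of the 2206 regions, 367 (16.6%) held or lay within 1000 bp of a placed RefSeq start, and 284 of them held the start itself. RefSeq placed a start at 76.4% of TSS regions and 8.45% of gene body regions. Among the 367, 142 matched a gene with a symbol other than a Gm or Rik number, and for 66 that gene was also the nearest gene of GENCODE M1, whose annotated starts lay farther off. The 3 sequences below are the 250 bases before the RefSeq start in such regions, read 5′ to 3′ on the strand of the gene from mm9, with each CG dinucleotide in capitals. They belong to Rbfox1, a neuronal RNA splicing factor, to Lingo1, a membrane protein of neurons that limits myelination, and to Adgrf5, an adhesion G protein-coupled receptor of endothelial cells, and were chosen after their values were seen because they show how unlike the promoters outside M1 genes are. They lie at chr16:5884636-5884885 (plus strand), chr9:56644118-56644367 (minus strand) and chr17:43497130-43497379 (plus strand).

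Rbfox1: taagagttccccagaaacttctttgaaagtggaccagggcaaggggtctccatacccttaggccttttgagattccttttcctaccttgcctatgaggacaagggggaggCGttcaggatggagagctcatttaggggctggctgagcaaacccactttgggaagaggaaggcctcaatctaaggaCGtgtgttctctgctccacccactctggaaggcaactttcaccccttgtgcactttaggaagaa

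Lingo1: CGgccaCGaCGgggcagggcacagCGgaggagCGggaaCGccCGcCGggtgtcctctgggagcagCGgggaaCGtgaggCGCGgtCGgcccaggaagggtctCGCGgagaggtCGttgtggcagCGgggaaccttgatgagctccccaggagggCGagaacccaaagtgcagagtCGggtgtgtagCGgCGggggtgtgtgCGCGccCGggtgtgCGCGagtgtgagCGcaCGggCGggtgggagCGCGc

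Adgrf5: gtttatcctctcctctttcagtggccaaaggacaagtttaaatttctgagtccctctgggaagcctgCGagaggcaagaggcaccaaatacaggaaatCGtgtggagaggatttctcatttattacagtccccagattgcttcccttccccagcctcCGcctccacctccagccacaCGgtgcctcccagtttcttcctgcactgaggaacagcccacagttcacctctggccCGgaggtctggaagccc

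The Lingo1 stretch held 31 CG dinucleotides and 1 GC box (GGGCGG on either strand, found in 32.7% of the 250-base stretches before all RefSeq starts), the Rbfox1 stretch held 2 CG and the Adgrf5 stretch 5. At least 10 CG were present in 37.8% of all such stretches. TATAAA on either strand was in none of these 3 stretches and in 12.4% of all.

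For regions without a RefSeq start, the central 300 bases of 5 regions are given from the plus strand of mm9, again with CG in capitals. They are the regions with the largest called fall and rise between the lines in tChIP-Seq (chr12:39655518-39655817, downstream of Etv1, and chr13:44169190-44169489, upstream of Gm5083), the largest called rises in tChIP-Seq over single ChIP-Seq in each line (chr8:73655618-73655917, upstream of Gm17576, and chr1:195208094-195208393, upstream of Camk1g), and the only region called lower in Camk2a single ChIP-Seq (chr15:68193942-68194241, upstream of Mir30d).

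Etv1: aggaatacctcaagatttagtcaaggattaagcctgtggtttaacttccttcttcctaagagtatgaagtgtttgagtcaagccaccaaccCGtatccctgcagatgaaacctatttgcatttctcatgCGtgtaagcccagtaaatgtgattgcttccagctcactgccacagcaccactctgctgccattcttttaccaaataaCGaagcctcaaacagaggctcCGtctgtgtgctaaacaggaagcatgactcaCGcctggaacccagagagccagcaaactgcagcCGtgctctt

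Gm5083: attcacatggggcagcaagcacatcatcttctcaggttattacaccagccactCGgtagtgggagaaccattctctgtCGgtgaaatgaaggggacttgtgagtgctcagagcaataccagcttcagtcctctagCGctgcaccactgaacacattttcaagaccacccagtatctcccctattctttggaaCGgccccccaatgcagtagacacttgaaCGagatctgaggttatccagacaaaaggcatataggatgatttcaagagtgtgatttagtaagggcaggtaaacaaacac

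Gm17576: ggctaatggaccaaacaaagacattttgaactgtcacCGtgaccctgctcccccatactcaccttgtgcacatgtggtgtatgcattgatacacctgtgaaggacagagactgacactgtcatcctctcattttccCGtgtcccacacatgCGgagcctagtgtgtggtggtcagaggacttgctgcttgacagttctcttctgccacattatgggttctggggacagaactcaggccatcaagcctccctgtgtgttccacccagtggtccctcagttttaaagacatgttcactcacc

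Camk1g: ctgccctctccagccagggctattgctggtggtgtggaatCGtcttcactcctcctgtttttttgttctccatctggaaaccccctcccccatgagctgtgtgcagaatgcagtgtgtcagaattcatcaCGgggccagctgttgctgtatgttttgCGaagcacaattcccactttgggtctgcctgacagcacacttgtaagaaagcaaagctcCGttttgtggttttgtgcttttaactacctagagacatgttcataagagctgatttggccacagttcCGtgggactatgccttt

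Mir30d: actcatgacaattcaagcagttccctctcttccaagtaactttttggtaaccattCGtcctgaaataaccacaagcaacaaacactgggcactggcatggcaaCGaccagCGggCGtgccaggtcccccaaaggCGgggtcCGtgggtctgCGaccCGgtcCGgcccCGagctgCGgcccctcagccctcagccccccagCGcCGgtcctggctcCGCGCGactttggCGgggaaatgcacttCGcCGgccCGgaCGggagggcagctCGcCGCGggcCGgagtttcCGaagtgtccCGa

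The Mir30d stretch held 27 CG dinucleotides, and the other 4 held 3 to 6. Over all intergenic regions, 57.8% had at least 10 CG in the central 300 bases, against 72.9% of TSS regions and 54.8% of gene body regions. The GC box was in 34.1% of intergenic regions, 28.8% of gene body regions, 43.8% of TSS regions and 41.3% of all regions. CAGATG, 1 form of the E-box that basic helix-loop-helix factors such as Neurod2 bind, was in 17.6%, 18.6%, 13.2% and 14.2%, so intergenic regions were like gene body regions in this. TGANTCA, the site of AP-1 (Fos and Jun proteins), was in 6.26%, 5.36%, 4.21% and 4.55%. All motifs were read on both strands of the central 300 bases, and a match is a match of letters only.

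Intergenic regions were narrow and weak. The median width was 778 bp, against 1999 bp for TSS regions and 753 bp for gene body regions. The median of the mean level over the 12 libraries was 7.55 CPM (counts per 1000000, on edgeR's TMM-normalised library size), against 59.0 for TSS regions and 6.75 for gene body regions, and per kilobase of region it was 9.99, 27.9 and 9.35 CPM. Levels ran from 2.83 CPM at the 10th percentile to 41.5 at the 90th and 281 for the highest. With library totals of 1457261 to 1828371 counts in Rosa tChIP-Seq, 2709729 to 3049130 in Camk2a tChIP-Seq, 4063200 to 4233144 in Camk2a single ChIP-Seq and 6316125 to 8644574 in Rosa single ChIP-Seq, the median intergenic region held 14 to 17.5 counts in a Rosa tChIP-Seq library and 33 to 45 in a Rosa single ChIP-Seq library. The Rosa tChIP-Seq counts therefore limited what could be detected. The median distance to the nearest gene was 14886 bp. On either side of the distance rule, the 66 regions 1030 to 1975 bp from a TSS had a median of 11.7 CPM, and the 213 regions that overlapped no gene but lay 1 to 1000 bp from a TSS had 10.9 CPM.

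Regions at a RefSeq start were the strong part of the set. Their median level was 19.9 CPM and their median width 1265 bp, against 6.69 CPM and 714 bp for the other 1839. A RefSeq start lay at 44.3% of the 289 regions of 32 CPM or more and at 5.79% of the 518 regions under 4 CPM. The median ratio of observed to expected CpG was 0.491 with a RefSeq start and 0.493 without.

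Intergenic regions took a larger share of the counts after the FLAG step. The share was 3.22% ± 0.018 in Rosa single ChIP-Seq, 3.96% ± 0.046 in Rosa tChIP-Seq, 3.47% ± 0.026 in Camk2a single ChIP-Seq and 4.04% ± 0.021 in Camk2a tChIP-Seq (mean ± SD, n = 3 libraries each), and the 4 groups did not overlap. The assays differed by 0.741 percentage points in Rosa and 0.575 in Camk2a (mean 0.658, two-sided exact permutation test within lines, p = 0.005, the smallest that 400 arrangements allow). The Camk2a difference, and so the mean, also holds the selection of tagged neurons. The lines differed by 0.0812 points for tChIP-Seq and 0.247 for single ChIP-Seq (mean 0.164, two-sided exact permutation test within assays, p = 0.005). Without the 367 regions at RefSeq starts the line difference was -0.0145 points for tChIP-Seq and 0.207 for single ChIP-Seq (exact permutation p = 0.075), while the assay difference was 0.589 points (p = 0.005). The assay difference was 0.166 points smaller in Camk2a than in Rosa (exact permutation p = 0.1, the smallest possible with 20 arrangements). Gene body regions also took more of the counts in tChIP-Seq, with 1.71% against 2.28% in Rosa and 1.84% against 2.37% in Camk2a. The regions come from peaks called in these same libraries, and what that choice adds to the share differences was not tested. The labels give replicate numbers only, so p-values measure the spread between these libraries. With same-numbered libraries taken as pairs, the assay and line differences both had p = 0.03125 (paired exact permutation, the smallest that 64 arrangements allow).

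**Figure D1:**
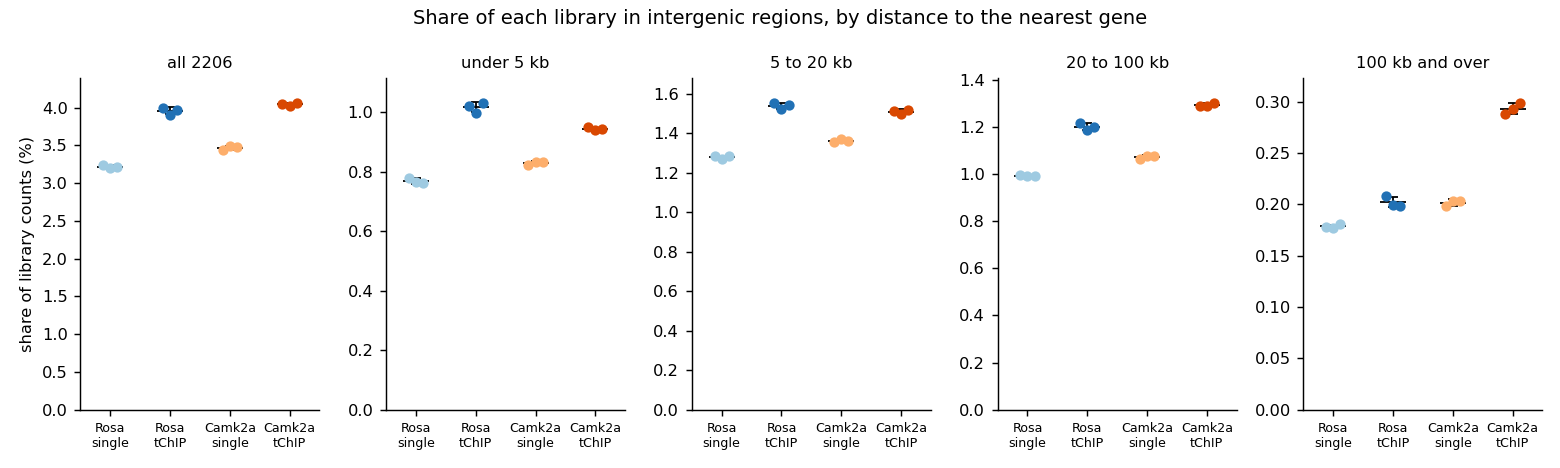
Share of each library's counts (y axis, %) in all intergenic regions and in 4 classes of distance to the nearest gene, by group (x axis). Points are single libraries and bars are the mean ± SD of 3 libraries. In regions 100 kb and more from a gene, Camk2a tChIP-Seq stood at 0.293% and the other groups at 0.179% to 0.202%.

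The distance classes differed in this respect. In regions under 5 kb from a gene Rosa tChIP-Seq had the largest share, with 1.02% ± 0.017 against 0.944% ± 0.0040 in Camk2a tChIP-Seq, and the single ChIP-Seq shares were 0.768% and 0.828%. In regions of 100 kb and more the order was turned, with 0.202% ± 0.0050 in Rosa tChIP-Seq and 0.293% ± 0.0055 in Camk2a tChIP-Seq, and 0.179% and 0.202% in single ChIP-Seq. The tChIP-Seq groups did not overlap in either class.

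The comparison of Camk2a with Rosa in tChIP-Seq asks which regions carry more or less H3K4me3 in the tagged neurons than in the cortex as a whole. With edgeR's quasi-likelihood test, fitted over all 17993 regions and called at an adjusted p under 0.01, 302 intergenic regions (13.7%) were higher in Camk2a, against 17.0% of all regions, and 191 (8.66%) were lower, against 14.6% of all regions. Both shares were below those of all regions, whose median level was 46.6 CPM. At matched level the share of higher regions was not below that of TSS regions, with 8.88%, 11.7%, 13.7%, 13.3% and 27.0% of intergenic regions at under 4, 4 to 8, 8 to 16, 16 to 32 and 32 CPM and more, against 3.87%, 7.24%, 12.4%, 13.1% and 20.1% of TSS regions. Lower regions made up 5.02%, 10.2%, 9.57%, 10.0% and 9.00% of intergenic regions in the same classes, against 17.2%, 29.9%, 30.9%, 29.4% and 10.7% of TSS regions. Intergenic and TSS regions thus differed above all in the lower calls below 32 CPM, and this was not tested. In gene body regions 10.3%, 12.1%, 16.8%, 25.4% and 35.8% were higher and 13.2%, 12.5%, 17.7%, 17.2% and 14.9% lower in the same classes. Fewer lower calls than in TSS regions below 32 CPM were thus not particular to intergenic regions. DESeq2 called 170 higher and 114 lower intergenic regions. The median log2 fold change over all intergenic regions was 0.05, against -0.01 for TSS regions and 0.13 for gene body regions. The 3 libraries of each group did not overlap for 972 intergenic regions (44.1%), against 48.4% of all regions. In bulk chromatin, more cells with a mark and more mark per cell cannot be told apart.

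The farther from a gene, the more the calls leaned towards Camk2a. Higher regions made up 11.9% of the 452 under 5 kb, 11.7% of the 838 at 5 to 20 kb, 15.0% of the 726 at 20 to 100 kb and 21.6% of the 190 at 100 kb and more. Lower regions made up 10.8%, 9.90%, 7.30% and 3.16% in the same order, and the median log2 fold changes were -0.05, 0.01, 0.11 and 0.35. The rise at 100 kb and more was greater at RefSeq starts, where 54.8% of 31 regions were higher (median 0.67), than at the other 159, where 15.1% were (median 0.32). Both medians were above those of nearer classes, whose largest were 0.06 at RefSeq starts and 0.12 elsewhere, both at 20 to 100 kb. Between the lines in single ChIP-Seq the medians also rose with distance, at 0.13, 0.15, 0.17 and 0.22. The median level was 10.7 CPM under 5 kb and 5.29 CPM at 100 kb and more, and the classes were not matched for it. No test was made of the trend over regions, which are not replicates.

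**Figure D2:**
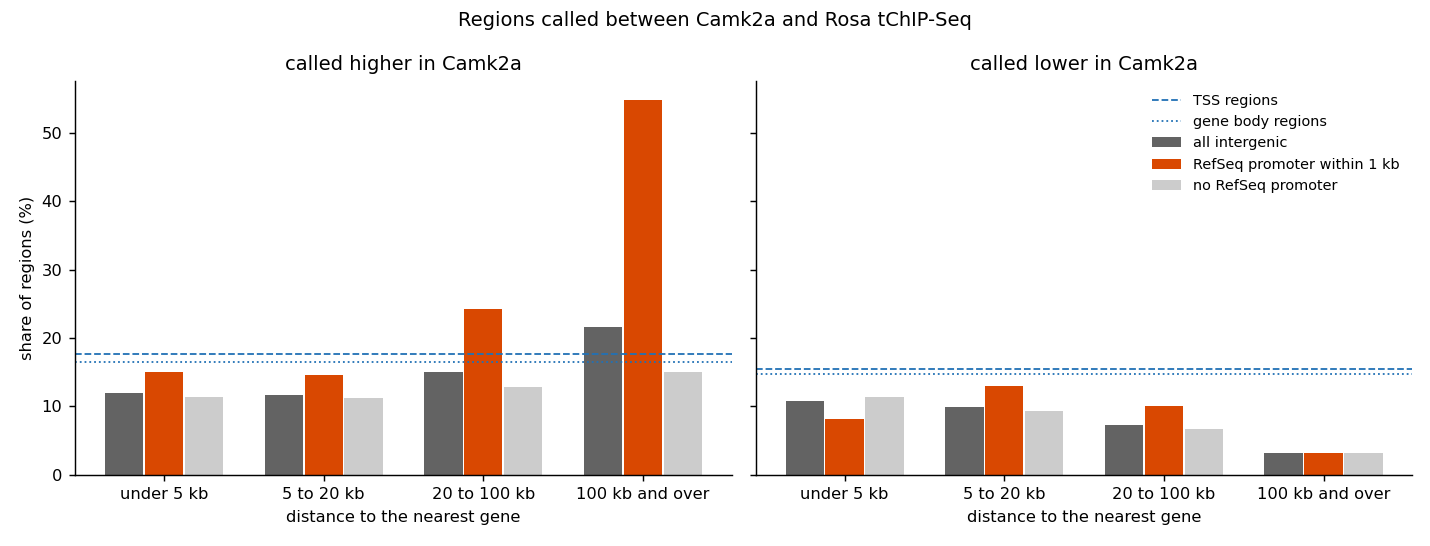
Share of intergenic regions (y axis, %) called higher (left) or lower (right) in Camk2a than in Rosa tChIP-Seq by distance to the nearest gene (x axis), for all regions and for those with and without a RefSeq start within 1000 bp. The dashed and dotted lines give TSS regions (17.6% higher, 15.5% lower) and gene body regions (16.6% and 14.7%), and the tallest bar is the 54.8% of regions at RefSeq starts 100 kb and more from an M1 gene.

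Several strong higher regions held promoters that RefSeq places and M1 does not. Of the 367 regions at RefSeq starts 80 (21.8%) were higher and 37 (10.1%) lower, against 222 (12.1%) and 154 (8.37%) of the 1839 others. These shares were not matched for level, which was 19.9 CPM at RefSeq starts and 6.69 CPM elsewhere. The median log2 fold change was not larger at RefSeq starts, with 0.03 against 0.06 for the others. One of the 3 regions farthest from any gene, 560 kb from the ribosomal RNA gene n-R5s30, held the Rbfox1 promoter shown above (chr16:5884610-5887213). It measured 43.8, 47.7 and 50.5 CPM in Rosa tChIP-Seq and 96.1, 96.7 and 92.5 CPM in Camk2a tChIP-Seq. In single ChIP-Seq it measured 55.8, 60.9 and 62.7 CPM in Rosa and 66.5, 63.7 and 59.8 CPM in Camk2a, and these overlapped. The log2 fold change between the lines was 1.02 ± 0.10 (SE, edgeR adjusted p = 7.6e-15) for tChIP-Seq and 0.08 ± 0.07 (adjusted p = 0.51) for single ChIP-Seq.

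The Lingo1 promoter region (chr9:56639528-56645721, 50.7 kb from Odf3l1) had the largest rise among the 15 strongest higher regions at RefSeq starts. Its level was 68.4 ± 4.6 CPM in Rosa tChIP-Seq and 189 ± 1.5 in Camk2a tChIP-Seq (mean ± SD, n = 3), a log2 fold change of 1.47, while the single ChIP-Seq levels were 102 ± 4.7 and 100.2 ± 4.3 CPM. These 15 regions were named after the values were seen, by mean level among the regions at RefSeq starts that were called higher, and 1 of them matched only a Gm number (Gm46091, upstream of Pou3f3). Besides Lingo1 and Fat3 (below) they held the promoters of the ion channel genes Kcnma1 (large-conductance calcium-activated potassium channel, 0.97) and Scn8a (voltage-gated sodium channel Nav1.6, 0.86), of Fgf12 (a regulator of sodium channels, 0.73), of Add2 (the spectrin-binding protein beta-adducin, 1.39), of Epb41l3 (a membrane skeleton protein, 0.97), of Tnr (the matrix protein tenascin-R, 1.14) and of the synaptic adhesion gene Nlgn1 (0.42), with log2 fold changes in brackets. In single ChIP-Seq their log2 fold changes ran from -0.13 for Hdac4, a histone deacetylase whose promoter was also among them, to 0.06 for Fat3 and Zdhhc1, and none was called.

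Among the 31 regions at RefSeq starts 100 kb and more from an M1 gene, the 17 higher ones held the promoters of Fat3, a large protocadherin (121 kb upstream of the M1 gene of that name), of Lsamp and Robo2, a neuronal adhesion molecule and the Slit receptor of growing axons, of Kcnh8, a potassium channel, of Myo16 and of Slc35f3, besides Rbfox1. Fat3 went from 104 ± 4.0 to 181 ± 9.7 CPM between the tChIP-Seq groups and Robo2 from 32.6 ± 2.4 to 88.3 ± 4.4 CPM, log2 fold changes of 0.80 and 1.43. Lsamp rose by less, from 51.8 ± 5.0 to 70.3 ± 4.6 CPM (0.44). The other 10 higher regions of this class matched only Gm or Rik numbers.

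**Figure D3:**
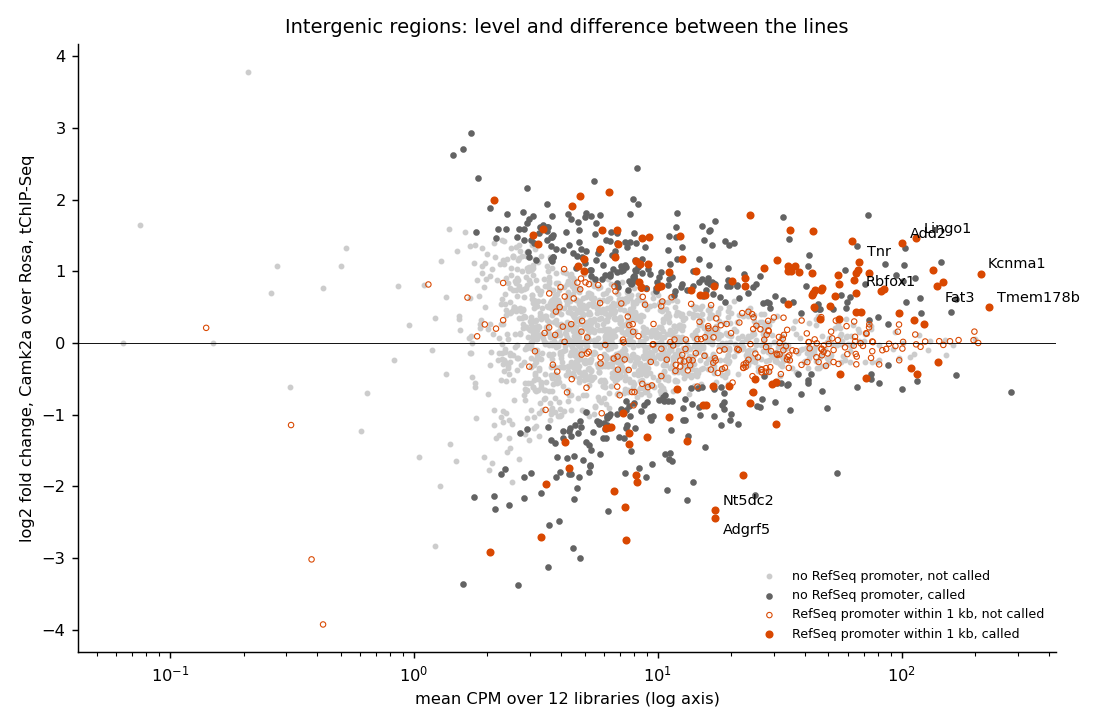
Mean CPM over the 12 libraries (x axis, log scale) and log2 fold change of Camk2a over Rosa in tChIP-Seq (y axis) for the 2206 intergenic regions, with called regions filled dark or orange and regions at RefSeq starts in orange. Named points are promoters that RefSeq places and GENCODE M1 does not, among them Lingo1 at 1.47 and Adgrf5 at -2.43.

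Among the 142 regions at RefSeq starts with a symbol other than a Gm or Rik number, 40 were higher and 17 lower. Of all regions 17.0% were higher and 14.6% lower. The Adgrf5 promoter region (27.0 kb from the M1 gene, there named Gpr116) fell from 24.4 ± 0.72 CPM in Rosa tChIP-Seq to 4.46 ± 0.53 in Camk2a tChIP-Seq (log2 fold change -2.43), with 19.3 ± 0.91 and 20.5 ± 4.0 CPM in single ChIP-Seq. A region at the start of Nt5dc2 fell from 34.1 ± 4.7 to 6.72 ± 1.8 CPM (-2.33). At the start of Dpf3, a subunit of the BAF chromatin remodelling complex, the fall was small, from 148 ± 17 to 110 ± 11 CPM (-0.43). At TSS regions of fixed marker lists, endothelial and mural genes were lower in 9 of 9 regions, astrocyte genes in 9 of 11, oligodendrocyte genes in 9 of 11 and inhibitory neuron genes in 6 of 8, and excitatory neuron genes were higher in 10 of 12. The summed excitatory markers were 753 to 802 CPM in Rosa tChIP-Seq and 1593 to 1666 in Camk2a tChIP-Seq, and the summed endothelial and mural markers 435 to 474 and 130 to 144 CPM. The 2 microglial regions measured, of a list of 12 genes, were not called in either direction.

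Regions outside genes were then grouped by the gene they neighbour within 100 kb. For comparison, 13.7% of all intergenic regions were higher and 8.66% lower, and 17.0% and 14.6% of all regions. Neuronal transcription factors had 11 such regions near 7 of 16 listed genes, Meis2, Neurod2 and Zeb2 among them, and 6 were higher and none lower in Camk2a (median log2 fold change 0.67). Glial and vascular transcription factors had 3 regions near 3 of 20 listed genes. None of these was called, and their median was also positive (0.32). Neurod2, a basic helix-loop-helix factor of excitatory neurons, had 3 of the 11 neuronal ones. A region 3.94 kb downstream (chr11:98181478-98182793) rose from 11, 22 and 11 counts in the Rosa tChIP-Seq libraries to 77, 70 and 58 in Camk2a (1.48 ± 0.22, edgeR adjusted p = 2.8e-08). A region 4.22 kb upstream, at the RefSeq start of Gm33099, rose from 11.0 ± 0.99 to 24.7 ± 2.3 CPM (1.18), and the strongest, 8.59 kb upstream, measured 33.3 ± 6.7 and 31.2 ± 3.8 CPM (-0.08) and was not called. Of the regions around Neurod2, the 2 nearest to the gene thus rose and the farthest did not pass the test.

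Pou3f3 and Pou3f2 encode POU-domain factors of upper cortical layers. The region 9.15 kb upstream of Pou3f3 (chr1:42740834-42744836, at the RefSeq start of Gm46091) went from 67.1 ± 9.0 to 114 ± 4.1 CPM (0.75), and the one 10.3 kb downstream, at the start of the noncoding RNA Pantr2, measured 72.0 ± 11 and 58.8 ± 11 CPM and was not called. The region 7.82 kb downstream of Pou3f2 went from 20.8 ± 2.2 to 34.0 ± 3.2 CPM (0.71). Near immediate early genes, 1 of 7 regions was higher, close to the 13.7% of all intergenic regions. It lay 10.2 kb upstream of Nr4a1, an activity-induced nuclear receptor. This region held 92, 52 and 61 counts in Rosa tChIP-Seq and 250, 195 and 245 in Camk2a, or 39.7 ± 8.5 and 80.9 ± 10.0 CPM (1.02 ± 0.12, edgeR adjusted p = 3.8e-12). Regions near Fos, Fosb and Arc were not called.

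Near inhibitory neuron genes, 1 of 4 regions was higher, 34.0 kb upstream of Dlx2, the homeobox gene of the interneuron lineage (chr2:71418785-71419731). Its levels were 12.3 ± 5.8 CPM in Rosa tChIP-Seq, with 9 counts in 1 library and 33 and 23 in the others, and 22.1 ± 1.3 in Camk2a tChIP-Seq (0.80 ± 0.21, adjusted p = 0.0011). Without the library of 9 counts (Rosa tChIP-Seq replicate 3) the log2 fold change was 0.50 and the region was not called. None of 5 regions near astrocyte genes (Aqp4, Gli3, Id3 and Slc1a3, median log2 fold change 0.15) was called, nor the single regions near Mog and Flt1, of oligodendrocytes and endothelial cells. The Flt1 region had a log2 fold change of -1.02 ± 0.38 (edgeR adjusted p = 0.027), with 26 counts in the 3 Camk2a tChIP-Seq libraries together, and did not pass the test.

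The 8 largest called changes in each direction, among regions whose groups did not overlap, were mostly at weak regions. Of the higher ones, only the region near Cwh43 had a RefSeq start (Gm34583). The one with the smallest adjusted p lay 180 kb from an annotated U6 copy, and 547 kb from the nearest coding gene, Tmem132c (chr5:127174620-127175504). It held 5, 6 and 5 counts in Rosa tChIP-Seq and 56, 40 and 51 in Camk2a tChIP-Seq, and 39, 51 and 33 and 25, 33 and 25 in the single ChIP-Seq libraries. The tChIP-Seq groups lay far apart, at 3.16 ± 0.50 and 17.2 ± 2.4 CPM (2.45 ± 0.30, edgeR adjusted p = 6.7e-11), and both single ChIP-Seq groups fell between them. A region 43.9 kb upstream of Bank1, a B cell scaffold gene, held 2, 3 and 2 counts against 16, 21 and 17 (edgeR adjusted p = 8.8e-05), and one 139 kb downstream of Plcl1 held 4, 2 and 5 against 25, 24 and 40 (2.26).

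In 3 of the higher regions the Rosa tChIP-Seq libraries held 3 counts in all. The region upstream of Gm5083 shown above had 1, 1 and 1 counts there and 13, 15 and 13 in Camk2a tChIP-Seq, a ratio of 8.20 with a counting interval of 2.61 to 41.4 (95%, exact). The regions near Cd83 and an SNORA17 copy had ratios of 7.00 (2.21 to 35.6) and 6.60 (2.07 to 33.6). The intervals cover counting error only and leave the sizes poorly known. DESeq2 called neither the Cd83 nor the SNORA17 region, nor the one near Crygs. The SNORA17 call was also lost without Rosa tChIP-Seq replicate 1 (1.99) and the Crygs call without replicate 2 (1.76).

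**Figure D4:**
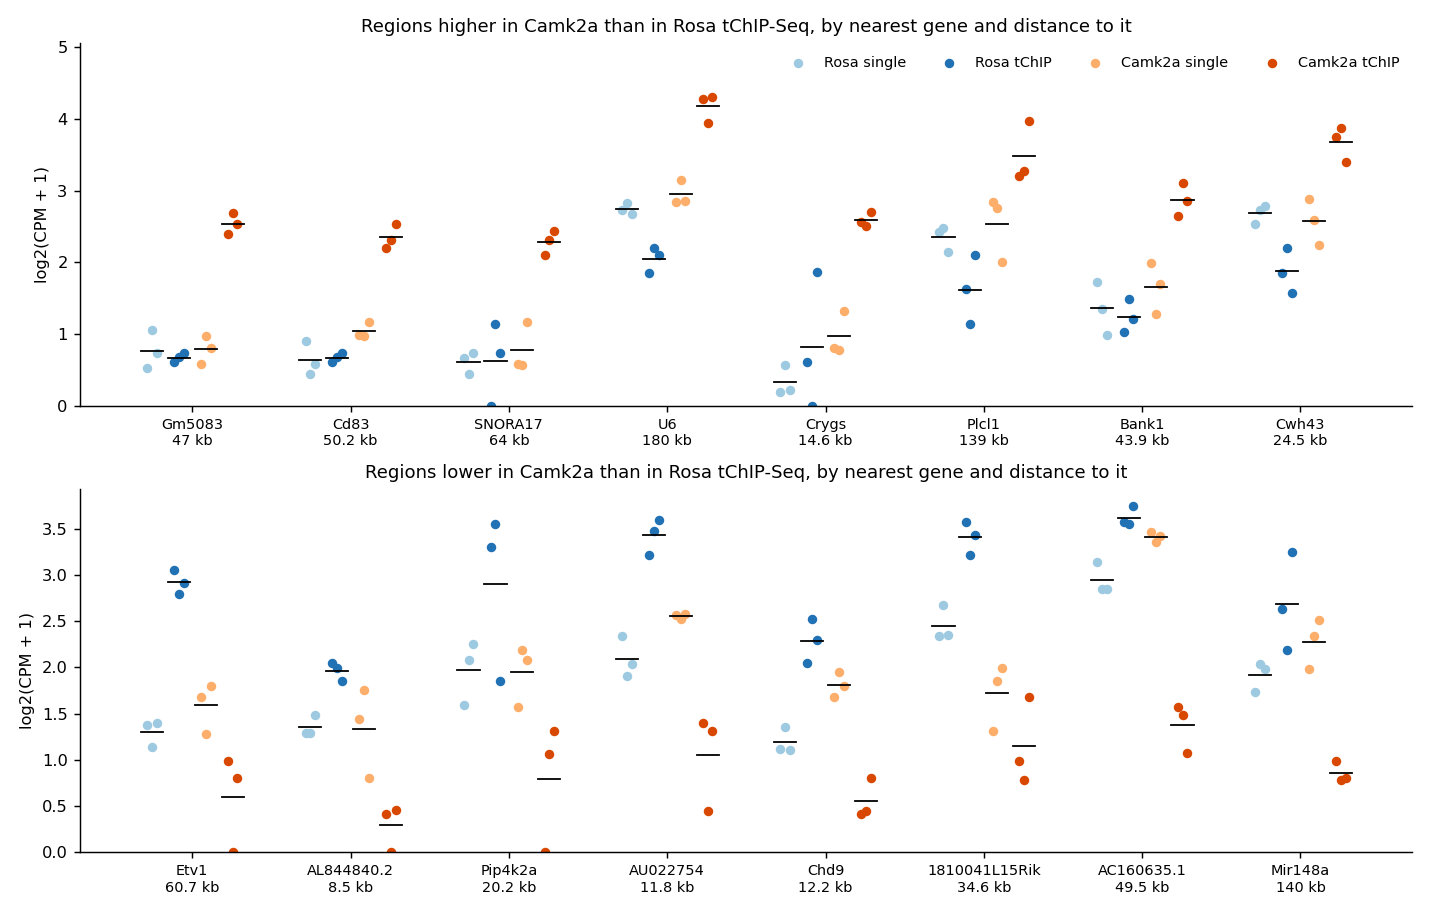
Level in each library, as log2(CPM + 1) (y axis), of the 8 regions with the largest called rise (top) and fall (bottom) between Rosa and Camk2a tChIP-Seq, labelled with the nearest M1 gene and its distance. Points are libraries and lines are means of 3. In the top row Camk2a tChIP-Seq is above the other 3 groups, and in the bottom row it is below Rosa tChIP-Seq in every library. Separation of the tChIP-Seq groups was a condition for naming these regions.

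The lower regions held few counts in Camk2a tChIP-Seq. The largest fall was 60.7 kb downstream of Etv1, an ETS factor of layer 5 neurons (sequence above), with 14, 10 and 10 counts in Rosa tChIP-Seq and 3, 0 and 2 in Camk2a tChIP-Seq (-3.38 ± 0.54, adjusted p = 1.6e-07), and 31 counts in Rosa and 25 in Camk2a over 3 single ChIP-Seq libraries each. A region 11.8 kb from the lincRNA AU022754 and 23.6 kb from Wnt7b (chr15:85435895-85436592) held 16, 17 and 17 counts against 5, 1 and 4 (-3.00 ± 0.42, adjusted p = 3.3e-09). Another, at the RefSeq start of Arhgap32, a GTPase-activating protein, held 21, 18 and 19 against 6, 5 and 3 (chr9:31824156-31825212, -2.74 ± 0.37, adjusted p = 9e-10). The separation of the tChIP-Seq groups in these 3 regions was a condition for naming them.

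Near Pip4k2a, a lipid kinase gene strongly expressed in oligodendrocytes, the Rosa tChIP-Seq libraries were themselves uneven, with 17, 18 and 4 counts against 0, 3 and 4 (-3.13). The remaining 4 lower regions, near AL844840.2, Chd9, 1810041L15Rik and Mir148a, had log2 fold changes of -3.36 to -2.70. In the AL844840.2 region 15 counts stood against 2, a ratio of 12.5 (2.91 to 113), and DESeq2 did not call it. None of the 16 regions was called between the lines in single ChIP-Seq.

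For 1197 regions the nearest gene had its own TSS region in the tables. Across these, the log2 fold change of the region and of the TSS region of its gene were weakly related in tChIP-Seq (Pearson r 0.186, Spearman rho 0.127, across regions in the same libraries). Of 159 higher regions, 49 had a TSS region called higher, 30 called lower and 80 not called. Of 114 lower regions the numbers were 14, 34 and 66, and of 924 uncalled regions 185, 190 and 549. The direction at the nearest promoter was therefore often not that of the region.

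Sequence differed a little between higher and lower regions. The lower regions more often had at least 10 CG in the centre (63.9%, against 51.3% of the higher and 57.8% of all intergenic regions) and more often a GC box (39.8%, 25.5% and 34.1%). The AP-1 letters TGANTCA were in 10.5% of the lower, 4.97% of the higher and 6.26% of all intergenic regions. The E-box letters CAGATG were in 14.1%, 16.9% and 17.6%. The 423 regions that met the usual criteria of a CpG island (GC over 50%, observed over expected CpG over 0.6 and at least 200 bp) were higher in 9.69% and lower in 13.2%, and the other 1783 in 14.6% and 7.57%. These shares are descriptions of regions, which were not tested as replicates.

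Between the lines in single ChIP-Seq, where both groups sample the whole cortex, few regions differed. Of the intergenic regions 41 were higher in Camk2a, against 0.928% of all regions (1.86% of intergenic regions), and 1 was lower, against 1.22% of all regions (0.0453% of intergenic regions). The number of higher regions was 21 to 26 without Camk2a single ChIP-Seq replicate 2 or 3 or Rosa single ChIP-Seq replicate 2 or 3, and DESeq2 called 7. The median log2 fold change was 0.16, against -0.02 for TSS regions and 0.18 for gene body regions. The 1 lower region, 19.8 kb upstream of the microRNA gene Mir30d (chr15:68192629-68195555), was also among the strong ones, with 821, 1003 and 798 counts in Rosa and 456, 455 and 411 in Camk2a (-0.19 ± 0.05, adjusted p = 0.0096), and DESeq2, both other scalings and the minimum of 10 counts lost the call. Leaving out any library but Rosa single ChIP-Seq replicate 1 lost it too, with values of -0.22 to -0.15. Its tChIP-Seq levels of 114 ± 3.9 and 102 ± 7.2 CPM did not pass the test.

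The higher regions were led by those near Gm17576, 2810429I04Rik and E030030I06Rik. The Gm17576 region held 2, 0 and 0 counts in Rosa single ChIP-Seq and 6, 5 and 5 in Camk2a single ChIP-Seq, a ratio of 13.9 with a counting interval of 3.28 to 125, and DESeq2 did not call it. Without Rosa single ChIP-Seq replicate 2 or 3 the log2 fold change went from 3.52 to 2.89 or 3.11 and the call was lost. The E030030I06Rik region (chr10:21862132-21862909) measured 1.58 ± 0.10 and 11.3 ± 0.21 CPM (2.81 ± 0.24, adjusted p = 9.4e-22). The single ChIP-Seq groups were separate in both regions, which was a condition for naming them.

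In Rosa the comparison of the assays asks what the FLAG step changes. In Camk2a the FLAG step also selects the tagged neurons from the cortex, and its own effect cannot be told apart from that selection. In Rosa mice, where nearly all cells are tagged, 818 intergenic regions (37.1%) were higher in tChIP-Seq, against 24.7% of all regions, and 109 (4.94%) were lower, against 22.5% of all regions. In Camk2a mice 793 (35.9%) were higher, against 25.3% of all regions, and 153 (6.94%) lower, against 22.6% of all regions. The medians of the log2 fold change were 0.54 in Rosa and 0.41 in Camk2a, against -0.07 in both for TSS regions and 0.65 and 0.52 for gene body regions. The medians of intergenic and gene body regions were thus positive in both lines, and those of TSS regions were slightly negative.

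This difference went with level. In Rosa the median log2 fold change was 0.72 for intergenic regions under 4 CPM, 0.80 at 4 to 8, 0.62 at 8 to 16, 0.27 at 16 to 32 and -0.12 at 32 CPM and more, and TSS regions in the same classes had 0.68, 1.00, 0.77, 0.35 and -0.15. In Camk2a the intergenic medians were 0.67, 0.62, 0.39, 0.23 and 0.00, and those of TSS regions 0.17, 0.43, 0.25, -0.01 and -0.09. At matched level the Rosa values of intergenic regions were close to or below those of TSS regions, and the Camk2a values were above them. Regions at RefSeq starts, the stronger ones, had medians of 0.16 in Rosa and 0.19 in Camk2a, against 0.60 and 0.46 for the others.

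**Figure D5:**
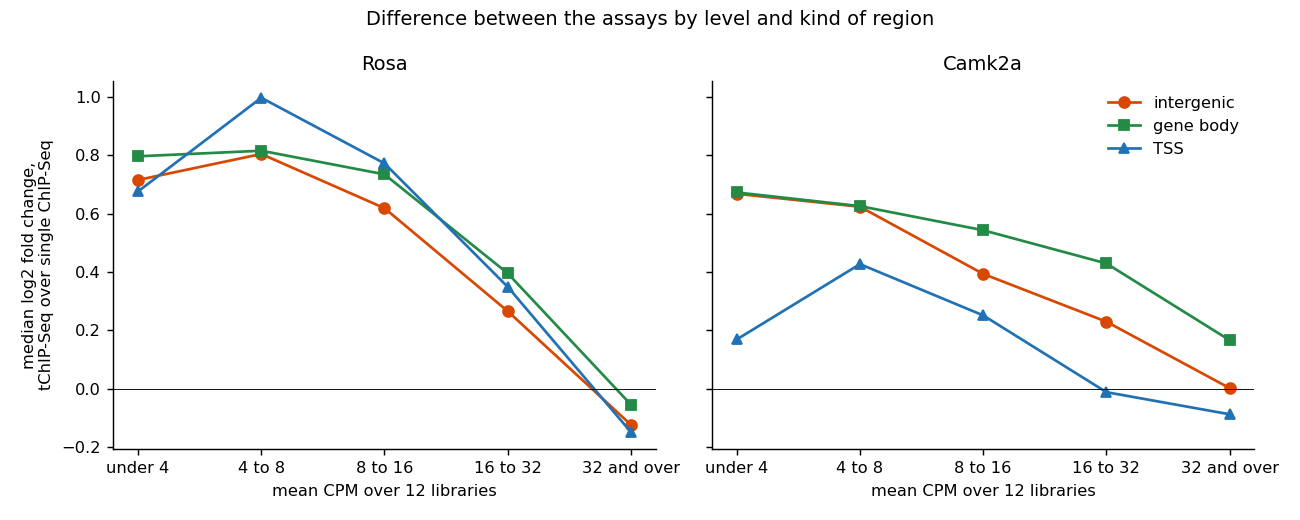
Median log2 fold change of tChIP-Seq over single ChIP-Seq (y axis) by mean CPM over the 12 libraries (x axis) for intergenic, gene body and TSS regions, in Rosa (left) and Camk2a (right). In Rosa the medians of the 3 kinds of region are highest at 4 to 8 CPM, fall from there and reach -0.12, -0.06 and -0.15 at 32 CPM and more, while in Camk2a intergenic regions stay above TSS regions throughout.

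A few intergenic regions stood out in Rosa by a rise of 8-fold or more (12 regions, log2 fold change of 3 or more). Of these 9 were also called higher in Camk2a than in Rosa in single ChIP-Seq, so in these 9 the base of the rise, Rosa single ChIP-Seq, was itself below Camk2a single ChIP-Seq. In Camk2a 6 of the 12 were called higher in tChIP-Seq, and 5 had a near-identical second place in mm9, as had 70 of all 2206 regions. The Gm17576 region was the extreme, with 11, 11 and 2 counts in Rosa tChIP-Seq against 2, 0 and 0 in single ChIP-Seq, a ratio of 50.1 with a counting interval of 12.4 to 438. In Camk2a it held 12, 10 and 10 against 6, 5 and 5 (edgeR adjusted p = 0.0012). The 2810429I04Rik region held 44, 31 and 22 counts against 7, 8 and 4 in Rosa (4.38 ± 0.30, edgeR adjusted p = 3.8e-47) and 32, 33 and 48 against 30, 22 and 35 in Camk2a (0.90).

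The strongest of the 12, and the strongest intergenic region of all by mean level, lay 1.62 kb from the pseudogene AY036118 (chr17:39979976-39983423), in the piece of the ribosomal RNA gene repeat that the assembly carries on chromosome 17. It measured 64.0 ± 9.3 CPM in Rosa single ChIP-Seq, 175 ± 20 in Camk2a single ChIP-Seq, 338 ± 20 in Camk2a tChIP-Seq and 548 ± 44 in Rosa tChIP-Seq, and the 4 groups did not overlap. Its GC content was 68.3%.

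Next in level came regions at ordinary promoters. The region 59.3 kb upstream of Mrps33, at the RefSeq start of Tmem178b, measured 251 ± 8.0, 174 ± 15, 243 ± 6.1 and 246 ± 12 CPM in Rosa single, Rosa tChIP-Seq, Camk2a single and Camk2a tChIP-Seq. That of Kcnma1 measured 221 ± 2.3, 135 ± 1.8, 225 ± 10 and 261 ± 20 CPM. The region at the start of Chaserr, a noncoding RNA upstream of the chromatin remodeller gene Chd2, measured 274 ± 3.1, 147 ± 12, 255 ± 6.6 and 147 ± 4.9 CPM, lower in tChIP-Seq in both lines (-0.89 and -0.80), with a difference between the lines of 0.00 ± 0.07 in tChIP-Seq that was not called. The Tmem178b and Kcnma1 promoters were thus lowest in Rosa tChIP-Seq, and the Chaserr promoter was lower in tChIP-Seq of both lines.

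Rises in Camk2a were led by the region 11.6 kb upstream of Camk1g, a calcium/calmodulin-dependent kinase gene (sequence above). It held 16, 14 and 14 counts in Camk2a tChIP-Seq and 1, 0 and 1 in Camk2a single ChIP-Seq, a ratio of 31.6 with a counting interval of 8.25 to 269. In Rosa it held 4, 4 and 3 against 4, 3 and 3 (2.14). The region upstream of Prr23a had a ratio of 28.0 (7.26 to 240). Regions lower in tChIP-Seq were fewer than higher ones, but at 32 CPM and more they numbered 85 of 289 (29.4%) in Rosa, against 37 (12.8%) higher, and 69 (23.9%) in Camk2a, against 76 (26.3%) higher. Of TSS regions at that level 35.8% were lower and 10.6% higher in Rosa, and 29.3% and 18.6% in Camk2a. Lower calls among strong regions were thus not particular to intergenic ones. The Gm12439 region fell in Rosa from 9.03 ± 0.47 to 2.74 ± 0.21 CPM (-1.70) and measured 8.65 ± 0.96 and 11.2 ± 2.6 CPM in Camk2a (0.36). A region of 77 bp near E330020D12Rik had 4, 3 and 1 counts in Camk2a single ChIP-Seq and none in 3 Camk2a tChIP-Seq libraries, at least 1.86-fold higher in single ChIP-Seq when 3 counts over the group stand for none. DESeq2, scaling from the TSS regions and the replicate block each left it uncalled, and leaving out either of Camk2a single ChIP-Seq replicates 1 and 2 or any Camk2a tChIP-Seq library lost the call.

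Whether the line difference depended on the assay was tested by the interaction over all 12 libraries. It was positive for 140 intergenic regions (6.35%), against 13.7% of all regions, and negative for 227 (10.3%), against 13.2% of all regions. By distance the positive share rose from 3.54% under 5 kb to 14.2% at 100 kb and more, and the negative share fell from 11.9% to 4.74%. Of the regions at RefSeq starts 14.4% were positive, against 4.73% of the others, and these shares were not matched for level. The Rbfox1 region had an interaction of 0.93 ± 0.12 (edgeR adjusted p = 1.1e-11), that of Kcnma1 0.94 ± 0.07 and that of Tmem178b 0.54 ± 0.07.

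The regions in the tables were chosen by the authors from peaks called in these libraries, so a region that was a peak in 1 group only is high there by that choice. In which group each was called is not given in the sources used here.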

How the data were processed

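H3K4me3 ChIP-Seq counts of 12 cortex libraries were used; 12 other libraries (input and FLAG) were not analysed here. Per the labels and the study's methods, the authors trimmed reads with the FASTX Toolkit, removed reads from repeats with Bowtie2 2.1.0, aligned the rest to mm9 with Bowtie 1.0.0, removed duplicates with SAMtools (its version differs between the 2 sources), called reproducible peaks with MACS and deposited read counts per region made with bedtools 2.17.0. The deposited counts are not normalised. Removal of repeat reads and duplicates lowers counts in repeats and caps those of very strong regions.

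Regions were placed against GENCODE M1 on mm9, and RefSeq promoter sequences (GRCm38.p6) were aligned to mm9 with minimap2 2.31 (at least 98% identity and length, 1 position). edgeR 4.0.16 (R 4.3.3; TMM, quasi-likelihood test, no filter, Benjamini-Hochberg over 17993 regions, called under 0.01) was fitted to the 6 libraries of each comparison and to all 12 for the interaction. CPM used TMM over all 12. Count ratios have exact binomial 95% limits. Shares of counts were tested by exact permutation. Alternatives were DESeq2 1.42.0, other scalings, a minimum of 10 counts, an adjusted p under 0.05, a replicate block, leaving out each library and other definitions of the set. The fit was tested on simulated data.

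The members and lists were chosen with earlier results of these data known. Named regions were the 8 largest called changes in each direction in tChIP-Seq between lines and the 3 largest in the other comparisons (groups not overlapping), the 3 largest interactions, the 5 highest by CPM and by CPM per kb, the 3 farthest from genes, and up to 4 per gene list within 100 kb. The RefSeq split and its named promoters were added after the values were seen. Some named results of the gene lists are not reported here.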

Additional observations from a re-analysis of the deposited data

Results flagged for a closer look

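Of 65 named regions, 29 had an interaction of line and assay past the threshold (edgeR, adjusted p under 0.01). In these the difference between the lines was not the same in tChIP-Seq and single ChIP-Seq. On the log2 scale 13 values were positive and 16 negative. Many of the 65 were named for large changes between groups, some for the interaction itself, so the count follows in part from that choice. Of all regions 13.7% were positive and 13.2% negative, and of intergenic regions 6.35% and 10.3%. Groups of 3 libraries were not searched for single outlying samples.

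Positive values, a larger Camk2a over Rosa ratio in tChIP-Seq, were found for the regions near Gm5083 (3.00), Gm7799 (2.38), U6 (2.22), Cwh43 (2.22), Gm12439 (2.08), Plcl1 (2.01), AC119249.5 (1.53), Nr4a1 (0.96), Gm6158, the Kcnma1 promoter (0.94), n-R5s30, the Rbfox1 promoter (0.93), Dlx2 (0.93), Pou3f3 (0.69) and Mrps33, the Tmem178b promoter (0.54).

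Negative values were found for the regions near Etv1 (-3.92), Chd9 (-3.91), Gm10354 (-3.75), Gm17576 (-3.73), AU022754 (-3.60), AL844840.2 (-3.55), 2810429I04Rik (-3.47), E030030I06Rik (-3.45), AC160635.1, the Arhgap32 start (-3.29), Mir148a (-3.22), Pip4k2a (-3.14), Ly6c2 (-2.85), AY036118 (-2.16), 1810041L15Rik (-1.95), AC109145.1 (-0.63) and Gm6020 (-0.52). Near-identical second places in mm9 were found for Gm10354, 2810429I04Rik, E030030I06Rik, Ly6c2, AC109145.1 and Gm6020, and their part in these values was not tested.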

How the results depend on the processing

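Where nothing else is said the cause of a change was not tested. Higher and lower intergenic regions between the lines in tChIP-Seq numbered 170 and 114 with DESeq2 and 164 and 121 with at least 10 counts in every library, a filter that leaves fewer regions; lower ones numbered 307 at an adjusted p under 0.05. In single ChIP-Seq DESeq2 called 7 higher and the 0.05 threshold 121 higher and 8 lower, and the 1 lower call became 0 with DESeq2, with its size factors in edgeR, with TMM from TSS regions and with at least 10 counts. Between the assays in Camk2a DESeq2 called 481 higher and 86 lower, and 232 were lower at 0.05. The interaction had 219 positive and 351 negative calls at 0.05, and 149 negative with DESeq2 and 145 with at least 10 counts. Without regions at RefSeq starts (fewer regions), 63 were lower in tChIP-Seq in Rosa, 87 interactions were positive, and the line difference in share was 0.0963 points (not past the threshold). Leaving out 1 library gave 229 to 271 higher and 154 to 182 lower regions between the lines in tChIP-Seq, 21 to 36 and 0 to 2 for single ChIP-Seq, 607 to 773 and 80 to 102 between the assays in Rosa, 671 to 722 and 125 to 145 in Camk2a, 113 to 141 positive and 179 to 214 negative interactions, and share differences of 0.648 to 0.671 (assay) and 0.151 to 0.174 (line) points. Of 74 named values 52 were called, and changes of sign were counted only where 1 of the 2 fits called the value. No such change was found, but 44 values had no fit with the minimum of 10 counts. With DESeq2 14 values lost their call, and 11 regions lost it without 1 library.

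With replicate number as a block the counts were 280 and 181 between the lines in tChIP-Seq, 41 and 2 for single ChIP-Seq, 808 and 108 between the assays in Rosa, 779 and 150 in Camk2a, and 142 and 229 for the interaction; the paired exact permutation of the shares gave p = 0.03125. Same-numbered libraries had correlations of deviations from -0.016 to 0.036. Replicates of a group differed by little more than counting error (chi-square per degree of freedom 1.03 to 1.09). These correlations therefore cannot show whether the numbers pair the libraries.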
